A study of Mus musculus with 214 samples.

Results

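The genes described here are 10 targets of the transcription factor p53 that act in cell cycle arrest and in feedback on p53 itself, chosen by gene symbol for these known roles: Cdkn1a, Btg2, Plk2, Zmat3, Trp53inp1, Mdm2, Ccng1, Ppm1d, Sesn1 and Sesn2. All 10 were present in both expression tables, among 19540 genes for Mgmt-/- livers and 18647 for WT livers (19900 in all, 18287 in both). Expression was measured by 3′ digital gene expression sequencing, which counts reads at the 3′ ends of transcripts, in single mouse livers of both sexes. RaDR+/+;GPT+/+ mice on a C57BL6 background (called WT) and mice that also lacked Mgmt received NDMA (N-nitrosodimethylamine, a DNA-methylating carcinogen) by intraperitoneal injection, a first dose of 3.5 mg/kg on postnatal day 8 followed by 7 mg/kg on postnatal day 15 (10.5 mg/kg in total), or saline at the same ages. Every mouse, the saline controls included, thus carried the RaDR recombination reporter and the gpt mutation reporter. Livers were collected 1, 2 and 5 days, 10 weeks and 10 months after the second dose.

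Values were available for 213 of 214 labelled livers, 117 WT and 96 Mgmt-/-, with 6 to 26 livers in each group used. Library depth ran from 713584 to 7740710 recovered reads in Mgmt-/- livers and from 150038 to 4791649 in WT livers, and 4 WT NDMA libraries held fewer than 300000. Each value is a normalised read count scaled within its genotype, so levels of the members are not set across the tables. As a check of the labels, Mgmt was expressed as CPM, its share of each library's own total, which does not depend on that scaling. It had a median of 0.554 CPM (at most 7.24) in Mgmt-/- libraries and 29.2 (at least 7.51) in WT libraries, so the ranges did not overlap, although some Mgmt-/- libraries held reads assigned to the gene. Albumin and 5 other hepatocyte genes averaged at least 15170 in every library except 2 Mgmt-/- saline libraries of day 5 (D389011 and D389017), where they averaged at most 396 and the kidney gene Kap was at least 6147. Those 2 libraries were left out, leaving 94 Mgmt-/- livers.

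Other libraries stood apart and were kept, with values also given without them for part of the members and times. Among WT livers of day 1, the sex genes of 2 NDMA libraries (D209077 and D209072) went against their labelled sex, and these were the lowest of 26 for Cdkn1a, at 16.3 and 30.3. A WT saline library of the same batch and day (D209074) had Cdkn1a at 359, against at most 38.8 in the other 20. At each of 3 later times 1 WT saline library was also far above its group in Cdkn1a: D215004 at day 2 (212, next 35.8), D215012 at day 5 (109, next 17.6) and D202018 at week 10 (62.9, next 12.7).

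p53 is held at a low level by Mdm2, a ubiquitin ligase that marks it for destruction, and DNA damage signalling frees p53 from this control. Stabilised p53 then switches on genes that stop the cell cycle, above all Cdkn1a, which encodes the cyclin-dependent kinase inhibitor p21, and at the same time switches on its own inhibitors, among them Mdm2, Ccng1 and Ppm1d. In the liver, p21 is known to restrain hepatocyte division after injury, and NDMA is activated mainly in hepatocytes.

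Sequence near the transcription starts was read because several members moved together. RefSeq start windows (GRCm38.p6, 250 bases before to 50 after each start) were found for 8 of the 10 genes, 10 windows in all, and searched on both strands for the p53 half-site consensus and for 2 adjoining half-sites with at most 1 letter off. A half-site lay in 5 of the 10 windows, 1 window each of Cdkn1a, Mdm2, Ccng1, Ppm1d and Sesn1, compared with 8.36% of 32851 windows of the same length. Cdkn1a and Sesn1 each had a further window without a match. The joined site of 20 bases lay in 2 of the 10 windows, compared with 0.067% of all windows. It lay 51 to 32 bases before the upstream of the 2 starts of Cdkn1a, and 195 to 176 bases before the start of Ccng1. Half-site matches were thus present both in members that rose after NDMA and in Ppm1d and Sesn1, which were not called. A match describes letters and is not a bound site. The genes were chosen as known p53 targets, so shares above those of all windows may come from that choice alone. They are no separate evidence on the response to NDMA. The stretches are shown for 3 members that rose and for Sesn1, each on the strand of its gene, with the matched letters in capitals: Cdkn1a at chr17:29090876-29090977, Ccng1 at chr11:40755432-40755511, Mdm2 at chr10:117710905-117710974 and Sesn1 at chr10:41887236-41887305.
Cdkn1a: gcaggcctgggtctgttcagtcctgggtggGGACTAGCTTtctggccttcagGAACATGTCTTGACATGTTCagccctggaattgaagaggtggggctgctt
Ccng1: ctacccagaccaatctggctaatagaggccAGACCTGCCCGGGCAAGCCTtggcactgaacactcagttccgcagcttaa
Mdm2: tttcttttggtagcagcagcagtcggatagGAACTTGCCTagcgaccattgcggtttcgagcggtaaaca
Sesn1: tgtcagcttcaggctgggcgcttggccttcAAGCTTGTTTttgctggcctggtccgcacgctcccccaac

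NDMA raised 7 of the 10 genes in Mgmt-/- livers on days 1, 2 and 5: Cdkn1a, Btg2, Plk2, Zmat3, Trp53inp1, Mdm2 and Ccng1. By week 10 Cdkn1a, Btg2 and Ccng1 were still higher than in saline livers, and by month 10 Cdkn1a and Btg2. In WT livers the same 7 rose on day 1, 4 of the 10 on day 2 (Cdkn1a, Zmat3, Trp53inp1 and Ccng1), 5 on day 5 (Cdkn1a, Btg2, Plk2, Trp53inp1 and Ccng1) and none at week 10 or month 10. A gene was called changed at an adjusted p (limma, Benjamini-Hochberg over all genes tested) under 0.05 and a log2 fold change past 0.58, and none of the 10 was called lower in any of the 10 comparisons. Ppm1d, Sesn1 and Sesn2 were called in none. In WT livers Trp53inp1 on day 2 did not pass with DESeq2 on recovered reads (adjusted p = 0.0568), and Plk2 and Trp53inp1 on day 5 did not pass in a fit of treatment alone (limma, adjusted p = 0.0793 and 0.128).

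The share of all genes called higher is the background to these counts. In Mgmt-/- livers it was 9.06% on day 1, where all 10 genes passed the filter on low values (a mean of at least 5 over the livers compared), 12.4% on day 2 and 11.1% on day 5, where 8 passed, 7.27% at week 10, where 8 passed, and 4.75% at month 10, where 10 passed. In WT livers it was 5.01% on day 1, 3.33% on day 2, 2.22% on day 5, 0.0249% at week 10 and 0% at month 10, with 8, 8, 8, 7 and 8 of the genes tested. The median log2 fold change of the tested members in Mgmt-/- livers was 2.31, 2.55, 2.36, 1.27 and 0.17 over the 5 times, beside medians between -0.01 and 0.04 for all genes. In WT livers it was 1.56, 1.09, 1.41, 0.38 and 0.11, beside -0.08 to -0.03 for all genes. The filter admits a gene that is high in 1 group only. Zmat3 averaged 3.66, 1.87 and 1.94 in Mgmt-/- saline livers of days 1, 2 and 5 and 2.42 and 2.64 in WT saline livers of days 1 and 2, so it entered all 5 comparisons in which it was called through the NDMA livers. Without Zmat3, 6 members were called in Mgmt-/- livers on each of those days, and 6 and 3 in WT livers on days 1 and 2. Every other called member averaged at least 5 in its saline livers.

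**Figure D1:**
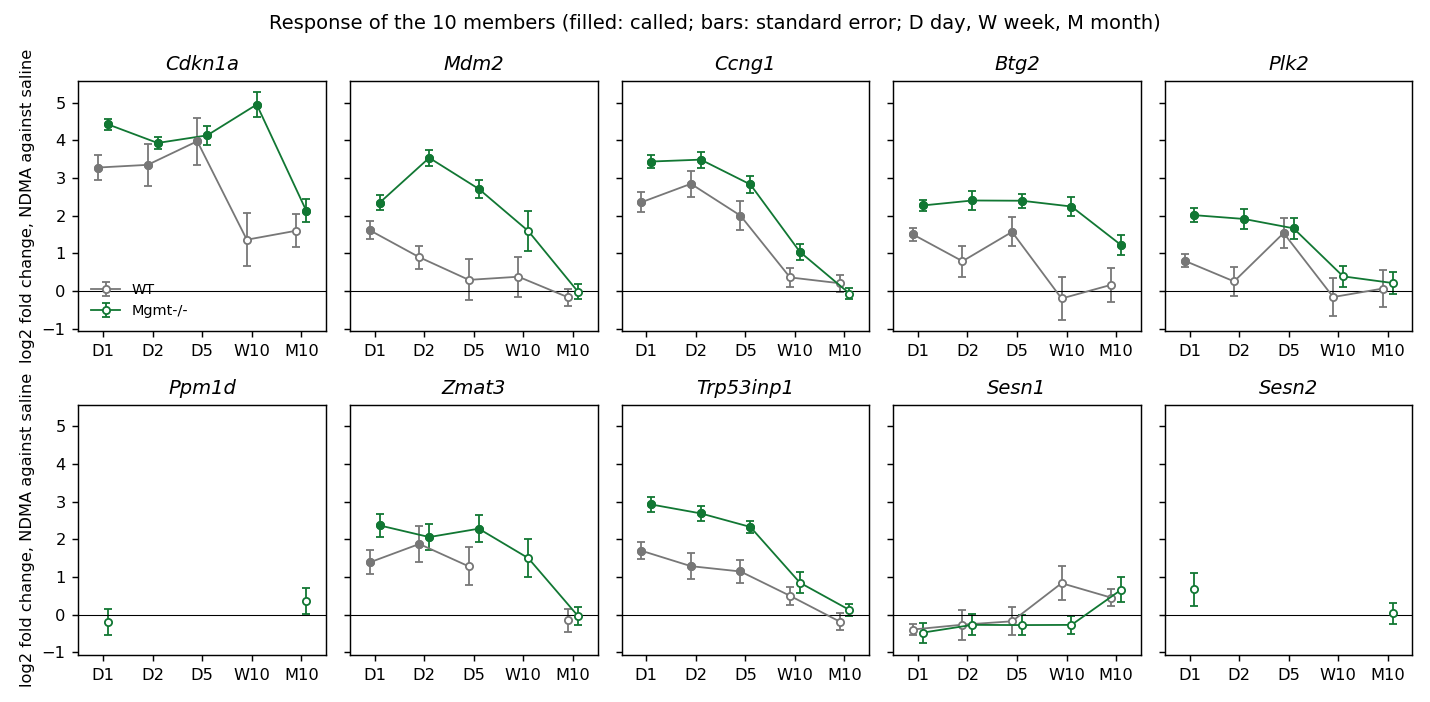
Log2 fold change of each gene, NDMA against saline, with its standard error, at the 5 collection times (D day, W week, M month) in WT (grey) and Mgmt-/- (green) livers. Filled points were called changed, and a missing point was not tested for low values. Cdkn1a in Mgmt-/- livers is the highest point of every time, 4.95 at week 10, and the Mdm2 lines of the genotypes are farthest apart at day 2.

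Cdkn1a (ENSMUSG00000023067, GRCm38 chromosome 17, plus strand) had the largest response of the 10 genes at every time in Mgmt-/- livers. On day 1 the normalised count in saline Mgmt-/- livers ran from 12.2 through a median of 25.6 to 44.2, and in NDMA livers from 347 through 566 to 679. All 12 NDMA livers lay far above all 12 saline livers, and the log2 fold change, 4.42 ± 0.15 (SE; limma, adjusted p = 3.72e-23), was the 8th largest of 10055 genes tested. Within batch the day 1 means were 21.4 ± 7.85 and 532 ± 83.8 (SD, 8 livers each) in 191212Eng and 37.1 ± 7.13 and 607 ± 54.3 (4 each) in 200803Eng. The response was 3.93 ± 0.15 on day 2 and 4.13 ± 0.24 on day 5, again without overlap.

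By week 10 the absolute level of Cdkn1a had come down in both arms of the Mgmt-/- mice while their ratio had not. Saline livers then held 1.51 to 8.48 with a median of 5.92, and NDMA livers 97.7 to 349 with a median of 170. No liver overlapped, and the log2 fold change was 4.95 ± 0.32 (limma, adjusted p = 1.81e-10). Set against day 1 within 1 fit, the effect differed by 0.53 ± 0.39 (limma, adjusted p = 0.539). At month 10 saline livers ran from 1.48 through 8.40 to 23.5 and NDMA livers from 19.5 through 35.5 to 105. Of 13 NDMA livers 11 were above the highest saline liver, and the log2 fold change was 2.13 ± 0.31 (limma, adjusted p = 2.20e-05), lower than on day 1 by 2.28 ± 0.35 (adjusted p = 6.91e-07).

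WT livers also raised Cdkn1a early, from a saline median of 15.1 to an NDMA median of 218 on day 1. The ranges were 4.23 to 359 in saline and 16.3 to 435 in NDMA livers, so the groups overlapped and 3 of 26 NDMA livers exceeded the saline maximum, which was library D209074. The log2 fold change was 3.28 ± 0.34 (limma, adjusted p = 1.08e-09), the 3rd largest of 9028, and 3.50 without D209074, when 24 of 26 NDMA livers were above the next saline value of 38.8. It was 3.74 when the 2 libraries with mismatched sex genes were also left out, and all 24 remaining NDMA livers were then above it. In batch 191212Eng the means were 20.4 ± 8.82 and 282 ± 53.9 (SD, 8 livers each), and in 210901Eng 13.7 ± 10.3 (9 livers) and 158 ± 53.4 (12 livers). Within batch 200803Eng alone, which holds all 3 of those libraries, the change was 1.71 and none of the members was called (adjusted p = 1.00). That fit held 4 saline and 6 NDMA livers, and its share of all genes called is not given.

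On day 2 WT saline livers held 4.02 to 212 (median 16.8) and NDMA livers 167 to 421 (median 210), with 4 of 8 above the saline maximum and a change of 3.35 ± 0.55 (limma, adjusted p = 0.00199). On day 5 saline livers held 1.63 to 109 (median 9.54) and NDMA livers 95.8 to 435 (median 166), with 6 of 8 above. That log2 fold change, 3.98 ± 0.62 (limma, adjusted p = 0.00346), was the largest of all 8654 genes tested in WT livers of that day. At both times each overlap came from a single saline liver: without D215004 the day 2 change was 3.82, and without D215012 the day 5 change was 4.48.

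At week 10 the WT groups interleaved. Saline livers held 1.52 to 62.9 with a median of 5.77 and NDMA livers 3.49 to 103 with a median of 16.9, and the log2 difference of 1.36 ± 0.70 did not pass (limma, adjusted p = 0.910, and 0.879 without D202018). Of 8 NDMA livers 2 were above the saline maximum, and without D202018 4 were above the next saline value of 12.7. At month 10 saline livers held 0 to 7.47 and NDMA livers 1.10 to 26.1, 9 of 13 above the saline maximum, with a log2 difference of 1.60 ± 0.44 that again did not pass (adjusted p = 0.444).

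**Figure D2:**
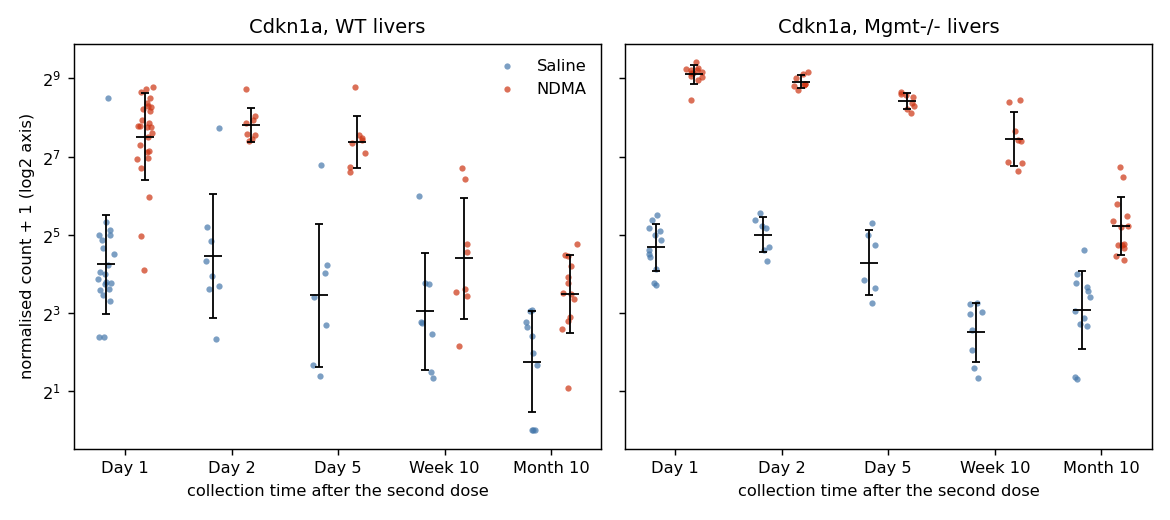
Cdkn1a normalised count plus 1 on a log2 axis for every liver used, by collection time, in saline (blue) and NDMA (red) mice. Bars show the mean and SD of log2 values. The 2 panels share an axis, but values are scaled within each genotype, so heights are not compared across panels. In Mgmt-/- mice no saline liver reaches an NDMA liver up to week 10, whereas 1 WT saline liver stands high at every time but month 10.

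Btg2, a member of the BTG/TOB family that slows division and recruits a deadenylase to messenger RNAs, was the other member called at all 5 times in Mgmt-/- livers. On day 1 saline livers held 48.9 to 110 (median 74.9) and NDMA livers 210 to 709 (median 353). The groups did not overlap and the log2 fold change was 2.27 ± 0.14 (limma, adjusted p = 1.48e-15). It was 2.40 ± 0.25 on day 2 and 2.40 ± 0.19 on day 5, with every NDMA liver above every saline liver. At week 10 saline livers had fallen to 6.12 to 33.4 (median 19.7) and NDMA livers to 50.8 to 114 (median 94.7). They remained apart, at 2.24 ± 0.24 (limma, adjusted p = 7.60e-07), which differed from day 1 by -0.03 ± 0.34 (adjusted p = 0.980). At month 10, 7 of 13 NDMA livers were above the highest saline liver and the log2 fold change was 1.22 ± 0.26 (adjusted p = 0.00267), lower than on day 1 by 1.05 ± 0.30 (adjusted p = 0.0139).

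In WT livers Btg2 ran from 22.7 to 125 (median 48.6) in saline and from 24.4 to 560 (median 135) in NDMA mice of day 1. The groups overlapped, 16 of 26 NDMA livers were above all saline livers, and the log2 fold change was 1.50 ± 0.17 (limma, adjusted p = 4.23e-09). The saline maximum was D209074: without it 21 NDMA livers were above the next value of 96.4 and the change was 1.60, and without the 2 sex-mismatched libraries as well the lowest NDMA liver was at 71.6 and the change was 1.72. It was 0.79 ± 0.41 on day 2 (adjusted p = 0.285) and 1.57 ± 0.38 on day 5 (adjusted p = 0.0301). Without the 1 day 2 library under 300000 reads (D215006, Btg2 at 21.0) the day 2 change was 1.14 and passed (limma, adjusted p = 0.00588). At week 10 and month 10 the differences were -0.20 ± 0.57 and 0.16 ± 0.46, and neither passed. Each rests on 1 NDMA library under 300000 reads with Btg2 at 0: without D215022 the week 10 difference was 0.37 (limma, adjusted p = 0.965), and without D215030 that of month 10 was 0.58 (adjusted p = 0.453).

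Trp53inp1, a nuclear protein that binds p53 and also acts in autophagy, rose 2.93 ± 0.20 on the log2 scale in Mgmt-/- livers on day 1 (limma, adjusted p = 1.67e-13), from 11.7 to 63.2 (median 21.9) in saline to 128 to 331 (median 195) in NDMA livers. The groups did not overlap then, nor on day 2 (2.69 ± 0.21) or day 5 (2.33 ± 0.17). At week 10, with 21.4 to 113 in saline and 48.9 to 121 in NDMA livers, the difference of 0.85 ± 0.28 fell just short (adjusted p = 0.0512), and the effect was lower than on day 1 by 2.08 ± 0.34 (adjusted p = 4.02e-06). At month 10 it was 0.12 ± 0.17. WT livers rose by 1.70 ± 0.23 on day 1, 1.29 ± 0.35 on day 2 and 1.15 ± 0.30 on day 5, overlapping with saline each time, and differed by 0.50 ± 0.23 at week 10 (adjusted p = 0.910).

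Plk2, a polo-like kinase that acts on centriole duplication, held 4.93 to 23.4 (median 10.9) in Mgmt-/- saline livers of day 1 and 26.7 to 61.7 (median 46.5) in NDMA livers. No liver overlapped, and the log2 fold change was 2.01 ± 0.19 (limma, adjusted p = 2.25e-10), with 1.91 ± 0.26 on day 2 and 1.66 ± 0.28 on day 5. At week 10 the effect was 0.39 ± 0.28 (adjusted p = 0.442), lower than on day 1 by 1.63 ± 0.39 (adjusted p = 0.00322). In WT livers Plk2 rose by 0.80 ± 0.17 on day 1 (adjusted p = 0.000412) and 1.54 ± 0.41 on day 5 (adjusted p = 0.0380), and differed by 0.25 ± 0.38 on day 2. On that day none of 8 NDMA livers was above the saline maximum of 23.2, which was D215004, and without that library 3 were above the next saline value of 11.8 and the difference was 0.43 (limma, adjusted p = 0.534).

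Zmat3, an RNA-binding zinc finger protein, was low, so its folds carry more counting error. In Mgmt-/- livers of day 1 it ran from 0 to 9.30 (median 3.58) in saline and from 5.30 to 50.6 (median 19.6) in NDMA livers, with 11 of 12 above the saline maximum and a change of 2.37 ± 0.32 (limma, adjusted p = 2.85e-07). It rose without overlap on day 2 (2.06 ± 0.35) and day 5 (2.28 ± 0.35), and at week 10 a difference of 1.50 ± 0.50 fell short (adjusted p = 0.0536), 1 saline liver being the highest of all 16 at 17.7. WT livers rose by 1.39 ± 0.32 on day 1 and 1.88 ± 0.47 on day 2, and on day 5 a difference of 1.28 ± 0.50 did not pass (adjusted p = 0.170). On day 1, 3 of 26 WT NDMA livers were above the saline maximum, and 13 without the high saline library. On day 2 it was 1 of 8, and all 8 without that day's high saline library.

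Among the feedback genes, Mdm2 was called on days 1, 2 and 5 in Mgmt-/- livers but on day 1 alone in WT livers. In Mgmt-/- livers of day 1 it held 4.93 to 27.1 (median 17.0) in saline and 41.1 to 178 (median 86.5) in NDMA mice, and on day 2 it held 3.44 to 11.7 (median 7.10) and 71.1 to 115 (median 101). The groups were apart on both days, and on day 5 as well. The log2 fold change was 2.34 ± 0.19 on day 1 (limma, adjusted p = 5.69e-12), 3.54 ± 0.21 on day 2 and 2.71 ± 0.23 on day 5. At week 10 NDMA livers held 9.46 to 25.1 and saline livers 0 to 21.9, and the difference of 1.59 ± 0.53 fell short (adjusted p = 0.0546). At month 10 the medians were 21.1 and 21.2.

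WT saline livers of day 1 held Mdm2 at 0.850 to 27.1 (median 9.80) and NDMA livers 2.72 to 65.1 (median 26.0), which overlapped, 11 of 26 being above the saline maximum, and the log2 fold change was 1.61 ± 0.24 (limma, adjusted p = 8.92e-07). Without D209074, the saline maximum, 21 were above the next value of 15.5 and the change was 1.74, and without the 2 sex-mismatched libraries as well the lowest NDMA liver was at 11.1 and the change was 1.87. On day 2, 6 of 8 NDMA livers (10.1 to 20.1) were above the saline maximum of 11.8 but the difference of 0.89 ± 0.31 did not pass (adjusted p = 0.0817), and it passed at 1.03 (adjusted p = 0.0309) without saline library D215004 and at 0.92 (adjusted p = 0.0367) without D215006. On day 5 the difference was 0.29 ± 0.55, and 0.78 (adjusted p = 0.183) without NDMA library D215014, which held under 300000 reads and had Mdm2 at 0. The WT effect on day 5 was lower than on day 1 by 1.32 ± 0.50, which did not pass over all genes (limma, adjusted p = 0.145), and by 0.88 (adjusted p = 0.326) without the libraries under 300000 reads.

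Ccng1, a cyclin that directs a phosphatase to Mdm2, was called in Mgmt-/- livers up to week 10 and in WT livers up to day 5. On day 1 Mgmt-/- saline livers held 8.64 to 42.8 (median 16.6) and NDMA livers 98.8 to 331 (median 184), a log2 fold change of 3.44 ± 0.16 without overlap (limma, adjusted p = 6.09e-19). The change was 3.49 ± 0.21 on day 2 and 2.83 ± 0.22 on day 5, also without overlap. At week 10 saline livers held 17.0 to 45.9 and NDMA livers 40.5 to 159, 7 of 8 above the saline maximum, and the change of 1.04 ± 0.22 passed (adjusted p = 0.00227) but was lower than on day 1 by 2.40 ± 0.28 (adjusted p = 5.11e-10). At month 10 the effect was -0.07 ± 0.15. The controls differed with time and with batch: saline livers of day 1 averaged 13.3 ± 4.59 (SD, n = 8) in 191212Eng and 29.9 ± 9.57 (n = 4) in 200803Eng, while those of week 10 and month 10, all of 200803Eng, averaged 36.3 ± 10.2 (n = 8) and 49.0 ± 9.31 (n = 12). Within 200803Eng alone the day 1 change was 3.25. In WT livers the changes were 2.35 ± 0.27, 2.85 ± 0.35 and 2.00 ± 0.38 on days 1, 2 and 5, all called. On those days 2 of 26, 7 of 8 and 2 of 8 NDMA livers were above the saline maximum. Without the high saline library of each day 24, 8 and 8 were above it. At week 10 and month 10 the differences were 0.36 ± 0.25 and 0.20 ± 0.23, the last being 0.39 without D215030.

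Ppm1d, a phosphatase that acts on p53 and on checkpoint kinases, showed no detectable response at this depth. It held 2.03 to 12.6 in saline and 0.477 to 12.1 in NDMA Mgmt-/- livers of day 1, fully overlapping, with a log2 difference of -0.20 ± 0.34 (limma, adjusted p = 0.728). At month 10 the difference was 0.35 ± 0.35 (adjusted p = 0.575), and in the other 8 comparisons Ppm1d was under the filter. In WT livers of day 2, where it was not tested, it was at 0 in 4 of 8 NDMA libraries and also in saline libraries D215001 and D215004.

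The sestrins, stress-induced proteins that restrain mTOR signalling, were not called in any comparison. Sesn1 passed the filter in all 10 comparisons and its differences on days 1 to 5 were below 0 in both genotypes, from -0.48 ± 0.26 to -0.18 ± 0.37. In WT livers of day 1 it held 6.21 to 17.2 (median 11.4) in saline and 2.11 to 18.5 (median 8.27) in NDMA livers, a difference of -0.40 ± 0.15 (limma, adjusted p = 0.0519) with wide overlap. The Sesn1 effect in Mgmt-/- livers was higher at month 10 than on day 1 by 1.15 ± 0.38 (adjusted p = 0.0396, and 0.0535 without sex and batch terms), although at neither time did it pass by itself. Sesn2 passed the filter in 2 comparisons, day 1 and month 10 in Mgmt-/- livers, with differences of 0.67 ± 0.44 (adjusted p = 0.287) and 0.03 ± 0.27. The batches of day 1 differed in direction: in 191212Eng saline livers averaged 2.90 ± 2.26 and NDMA livers 8.99 ± 4.78 (SD, 8 livers each), a difference of 1.41 that passed (limma, adjusted p = 0.0192) but entered through the NDMA livers, and in 200803Eng they averaged 8.13 ± 3.88 and 6.40 ± 6.45 (4 livers each). Under the filter, and so not tested, Sesn2 in Mgmt-/- livers held 0 to 7.51 (median 2.93) in saline and 3.50 to 10.4 (median 5.48) in NDMA livers on day 2, and 0.471 to 2.47 and 1.13 to 7.28 on day 5, so the groups overlapped on both days.

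**Figure D3:**
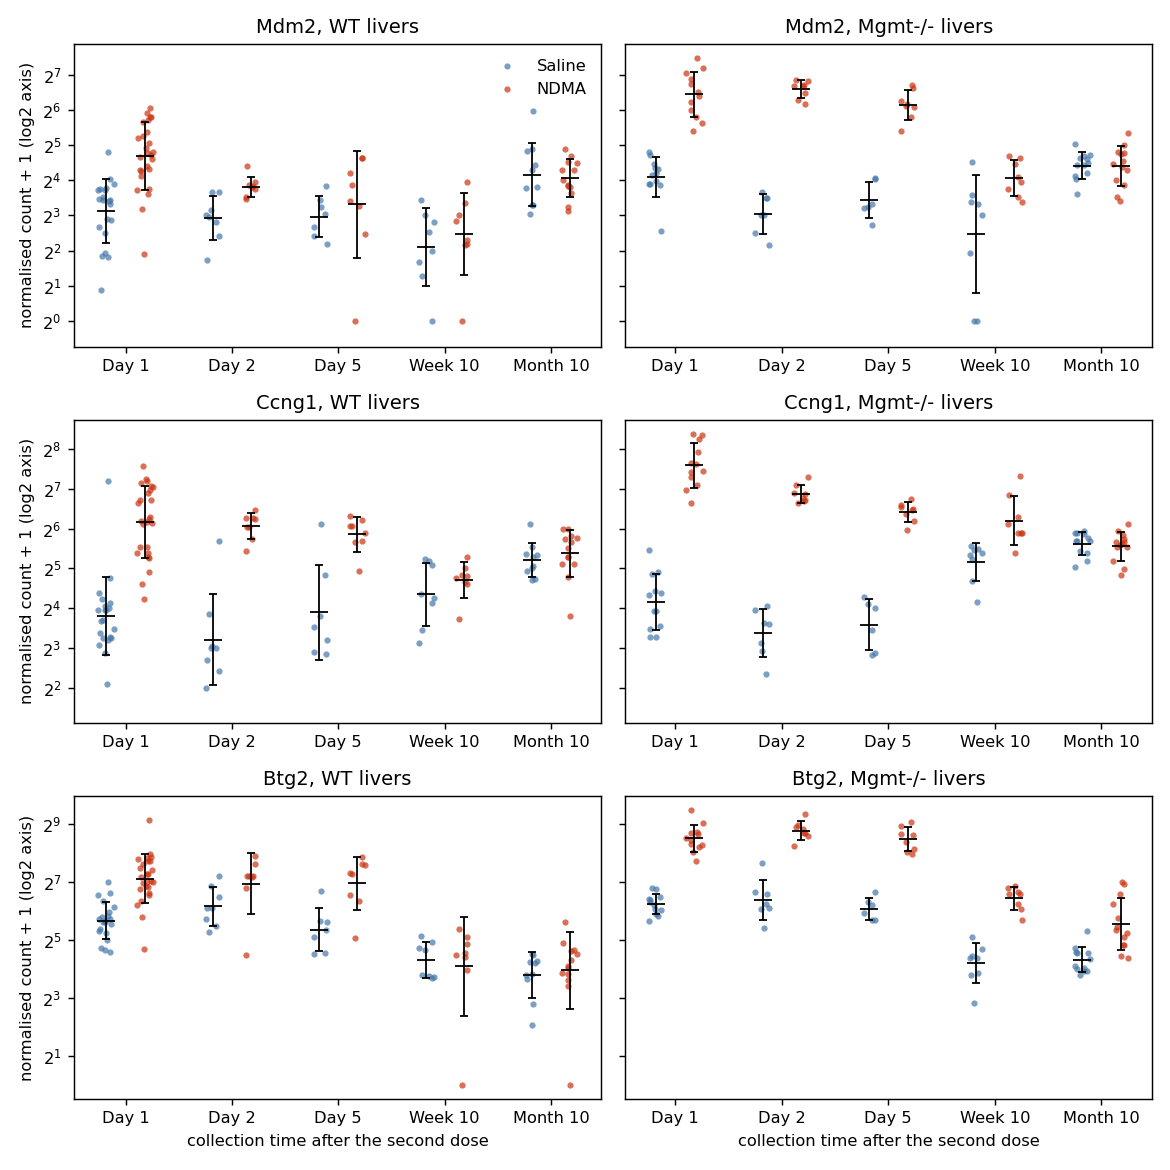
Mdm2, Ccng1 and Btg2 normalised counts plus 1 on log2 axes for every liver used, by collection time, in saline (blue) and NDMA (red) mice; bars show the mean and SD of log2 values, and values are scaled within each genotype. In Mgmt-/- mice Mdm2 and Ccng1 meet the saline livers by month 10, Btg2 stays apart at week 10, and the Ccng1 saline livers are spread at day 1, where they come from 2 batches averaging 13.3 and 29.9.

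How the NDMA effect at each later time differed from that on day 1 was tested within each genotype, over 68 gene and time combinations. No member was called lower in Mgmt-/- livers on day 2 or day 5, beside 0.0198% and 0.248% of all genes. At week 10 Ccng1, Plk2 and Trp53inp1 were lower, beside 2.00% of all genes, and at month 10 Cdkn1a, Mdm2, Ccng1, Btg2, Plk2, Zmat3 and Trp53inp1 were lower, beside 4.01%, while Sesn1 was higher, beside 5.42%. In WT livers no member was called lower on day 2 or day 5 (background 1.17% and 1.52%). Ccng1 was lower by 2.00 ± 0.44 and Zmat3 by 2.03 ± 0.56 at week 10 (background 1.08%), and Mdm2 by 1.77 ± 0.43, Ccng1 by 2.16 ± 0.39 and Trp53inp1 by 1.94 ± 0.35 at month 10 (background 0.868%). These contrasts share the day 1 livers. WT livers of day 2, day 5 and week 10 shared no batch with WT livers of day 1. Mgmt-/- livers of each later time came from a single batch that day 1 also held. For WT livers of day 2, day 5 and week 10 a batch difference in the NDMA response therefore cannot be told apart from time. WT livers of month 10 shared only batch 200803Eng with day 1. In Mgmt-/- livers the contrasts used day 1 livers of both batches, and none was fitted within a single batch. Within 200803Eng the Mgmt-/- saline and NDMA means of Ccng1 were 29.9 and 288 on day 1 and 49.0 and 47.3 at month 10. Those of Cdkn1a were 37.1 and 607, then 9.21 and 42.1, and those of Sesn1 12.5 and 10.6, then 9.06 and 13.2. The WT counts depend on the libraries that stood apart: without the 4 high saline libraries and the 2 with mismatched sex genes, 6 members were lower and Sesn1 was higher at week 10, and 6 were lower at month 10, Cdkn1a among them both times by 1.93 (adjusted p = 0.0163) and 2.08 (adjusted p = 0.00104). The shares of all genes called in that fit are not given, so the backgrounds above do not apply to these counts.

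Whether the response itself differed between genotypes was tested with a genotype by treatment term on recovered reads (edgeR quasi-likelihood test). The response of Mdm2 was greater in Mgmt-/- livers by 2.59 on the log2 scale on day 2 (adjusted p = 0.000231) and by 1.95 on day 5 (adjusted p = 0.00924). Trp53inp1 was greater by 1.73 on day 2 (adjusted p = 0.00716) and 1.17 on day 5 (adjusted p = 0.0427), and Plk2 by 1.59 on day 2 (adjusted p = 0.0486). At week 10 Cdkn1a was greater by 4.31 (adjusted p = 0.00611) and Btg2 by 2.01 (adjusted p = 0.000455).

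The 3 calls on day 2, 2 on day 5 and 2 at week 10 stood beside 2.37%, 1.46% and 3.32% of all genes with a response called greater in Mgmt-/- livers. No member was called on day 1 or at month 10, where 0% and 0.904% of all genes were called in that direction. On day 1 the terms of Cdkn1a and Plk2 were 1.25 (adjusted p = 0.296) and 1.13 (adjusted p = 0.0782). Batches were not shared by the genotypes on days 2 and 5 or at week 10, although each batch held both saline and NDMA livers. A batch difference in level therefore cancels in the term, while a batch difference in the NDMA response cannot be told apart from the genotype. Without the high saline and sex-mismatched WT libraries Cdkn1a at week 10 was 3.10 (adjusted p = 0.0157), Mdm2 kept its calls at 2.52 and 1.89 (on day 5 also at 1.88 without libraries under 300000 reads), and Plk2 on day 2 and Trp53inp1 on day 5 lost theirs (adjusted p = 0.0853 and 0.0849). With limma on log2 CPM neither day 5 call passed, Mdm2 being at 2.44 (adjusted p = 0.0503) and Trp53inp1 at 1.19 (adjusted p = 0.111).

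Males and females were compared by a sex by treatment term over the 83 member comparisons tested, and none passed (limma). In WT livers of day 2, day 5 and week 10 each batch held 1 sex. There a sex difference in the NDMA response cannot be told apart from a batch difference in it. Over all genes, the term called 11 of 9681 at week 10 and 34 of 10066 at month 10 in Mgmt-/- livers. No gene at all was called in Mgmt-/- livers at the earlier times, or in WT livers at any time. The lack of calls among the members thus does not set them apart from other genes. On day 1 the Mgmt-/- NDMA livers held Cdkn1a at 573 ± 62.9 in males and 540 ± 100.1 in females (SD, 6 livers each), against 26.3 ± 12.2 and 27.0 ± 9.91 in saline livers.

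Over single livers, the level of Cdkn1a was set against that of each other member within each group, and 5 of the 8 relations that passed were among the 26 WT NDMA livers of day 1, the group with the most livers. Pearson's r of log2 values was 0.83 with Mdm2 (Spearman's rho 0.69), 0.80 with Ccng1 (0.75), 0.75 with Btg2 (0.63), 0.70 with Trp53inp1 (0.68) and 0.62 with Zmat3 (0.62). The permutation p of the first was the smallest that 100000 resamples give, 1e-05 (adjusted over all 180 relations p = 0.0009), and that of Zmat3 was 0.00077 (adjusted p = 0.0198). After each batch was centred, r was 0.84, 0.82, 0.77, 0.65 and 0.62 in the same order.

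The 2 livers farthest from the median of Cdkn1a were the 2 with mismatched sex genes. Without them r was 0.65 with Mdm2 (permutation test, adjusted p = 0.0318), 0.69 with Ccng1 (adjusted p = 0.0216) and 0.62 with Trp53inp1 (adjusted p = 0.0459), while 0.48 with Btg2 and 0.46 with Zmat3 no longer passed (adjusted p = 0.297 and 0.329), so those relations rest in part on these livers. The corresponding 12 Mgmt-/- NDMA livers of day 1 gave a median r of 0.14 over the 9 other members, or 0.27 after each batch was centred, and none passed. In WT NDMA livers of day 2, day 5, week 10 and month 10 the median r was -0.17, -0.38, -0.08 and 0.02, and none passed.

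Of all 180 relations 8 passed. Beyond the 5 above, Cdkn1a went with Mdm2 over 8 Mgmt-/- NDMA livers of week 10, at r = 0.95 and rho = 0.95 (exact permutation test, p = 0.00067, adjusted p = 0.0198). Without its 2 farthest livers r was 0.93 over 6 (adjusted p = 0.279). In Mgmt-/- saline livers of day 2 it went with Sesn2 at r = 0.96 and rho = 0.89 (n = 7, exact permutation test, adjusted p = 0.0402), and r was 0.93 without 2 livers (adjusted p = 0.329). In WT saline livers of day 1 it went with Trp53inp1 at r = 0.68 and rho = 0.57 (adjusted permutation p = 0.0198), which fell to 0.49 without the 2 farthest livers (adjusted p = 0.329).

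**Figure D4:**
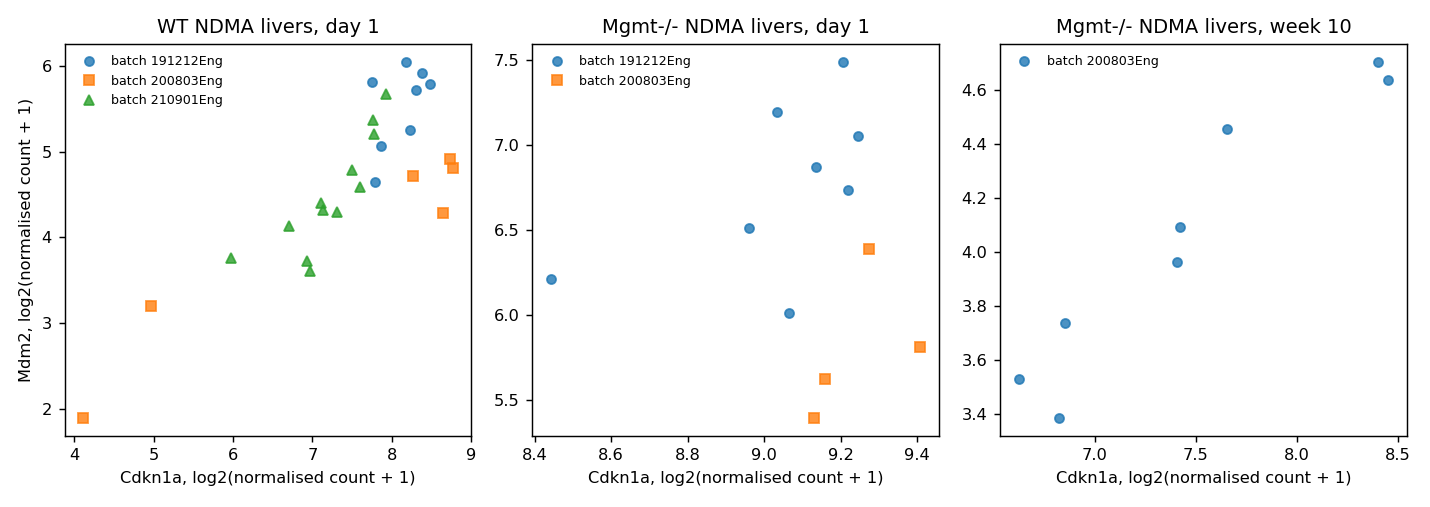
Mdm2 against Cdkn1a, both as log2 of the normalised count plus 1, for each NDMA liver of WT mice at day 1, Mgmt-/- mice at day 1 and Mgmt-/- mice at week 10, with library batch by symbol and axes scaled per panel. The WT panel has r = 0.83 and includes 2 low livers of batch 200803Eng, the day 1 Mgmt-/- panel spans Cdkn1a counts of 347 to 679, and the week 10 panel has r = 0.95.

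Across all NDMA livers of a genotype, after each group and batch was centred, the 5 genes most like Cdkn1a were described by Pearson's r alone. In 63 WT livers they were Ephx1 (0.72), Bscl2 (0.70), 2200002D01Rik (0.62), Tsc22d1 (0.61) and Vps36 (0.60), of 9088 genes. In 49 Mgmt-/- livers they were Pgm3 (0.69), Plin2 (0.66), Sept7 (0.66), Tubb2a (0.65) and Mrpl16 (0.64), of 10174 genes. Of the members, Ccng1 ranked highest in WT livers at 29 (r = 0.51), followed by Zmat3 at 295, and Plk2 ranked highest in Mgmt-/- livers at 711 (r = 0.38), followed by Ccng1 at 1295. Others ranked far lower: in WT livers Mdm2 was at 1325 (r = 0.19), Btg2 at 2548 (r = 0.08) and Plk2 at 5597 (r = -0.10). In Mgmt-/- livers Mdm2 was at 3330 (r = 0.13), Btg2 at 3724 (r = 0.10) and Zmat3 at 7042 (r = -0.17). Livers of each set also differ in depth, and the part of depth in these values was not tested.

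Other genes of the p53 pathway are given by textbook lists, and their counts stand beside the shares of all genes called higher given above (9.06% in Mgmt-/- and 5.01% in WT livers on day 1, 7.27% in Mgmt-/- livers at week 10). The filter can also admit a listed gene through its NDMA livers alone. No count without such genes is given for these lists or those that follow. Of 14 p53 targets of cell death, 10 of 11 tested rose in Mgmt-/- livers on day 1, among them Phlda3, a repressor of Akt (4.92), Eda2r, a death receptor (4.67), and the BCL2-family genes Pmaip1 (3.28) and Bax (2.65). On days 2 and 5 the count was 7 of 9 tested, at week 10 it was 3 of 8, and by month 10 none of 6 was higher and 1 was lower (beside 2.99% of all genes). In WT livers 3 of 8, 3 of 7 and 2 of 6 rose on days 1, 2 and 5, and none later. The median over the list on day 1 was 1.86 in Mgmt-/- and 0.56 in WT livers.

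Among 12 p53 targets of repair and metabolism, 5 of 11 tested rose on day 1 in Mgmt-/- livers: the epoxide hydrolase Ephx1 (2.81), the stress cytokine Gdf15 (2.78), the DNA polymerase Polk (2.33), the nuclease gene Ercc5 (0.87) and 1 more. In WT livers 4 of 10 did, with Ephx1 at 2.59, Gdf15 at 1.97 and Polk at 1.54. At week 10 Ephx1, at 0.99, was the 1 of 10 called in Mgmt-/- livers. Of 12 regulators of p53 itself Chek2 (1.05) and Rchy1 (0.69) of 11 tested rose on day 1, a count near the background, and no regulator was called in WT livers at any time.

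Inhibitors of cyclin-dependent kinases other than Cdkn1a did not rise with it early. On day 1 Cdkn1c fell by 2.07 on the log2 scale in Mgmt-/- livers (limma, adjusted p = 1.08e-07), with 11 of 12 NDMA livers below the lowest saline liver, and by 1.33 in WT livers, and it was the 1 of 4 and 1 of 3 tested that changed, beside 8.64% and 4.19% of all genes called lower. Paralogs of the members gave 2 of 11 on day 1, Plk3 (1.79) and Tob1 (0.73), near the background, and none of 8 in WT livers. Genes of dividing cells were counted beside Cdkn1a. Cdk1 rose by 0.77 and Ccnd2 by 0.61 in Mgmt-/- livers on day 1 (2 of 12 cyclins and kinases tested), and Aurka by 0.98 and Rrm2 by 0.89 (2 of 13 proliferation genes). These counts also lay near the background of 9.06%. At week 10, 4 of 10 and 4 of 6 tested rose, beside 7.27% of all genes called higher, with Cdk1 at 1.72 and Ccnd2 at 1.32. None was called in WT livers at any time.

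Stress response lists were also counted, beside 9.06% of all genes called higher in Mgmt-/- and 5.01% in WT livers on day 1. In Mgmt-/- livers that share was 7.27% at week 10 and 4.75% at month 10. Of 10 immediate early genes, a list that does not hold the early response gene Btg2, 5 of 8 tested rose in Mgmt-/- livers on day 1, with Jun at 1.81, Fos at 1.48, Ier3 at 1.12 and Klf6 at 0.77, and 3 of 7 at week 10 and 2 of 6 at month 10. None of the list was called in WT livers, where 6 were tested on day 1. Of 10 targets of the amino acid stress factor Atf4, a list that holds Sesn2, 2 of 8 rose on day 1 in Mgmt-/- livers, Ddit3 (1.40) and Psat1 (0.86), and 2 of 6 in WT livers.

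Markers of other liver cell types moved with the same groups. In whole liver RNA, fewer cells of a type and less RNA per cell cannot be told apart. In Mgmt-/- livers of day 1 the summed hepatocyte markers went from a median of 308269 in saline to 202799 in NDMA livers, with 3 of 6 lower (beside 8.64% of all genes) and Alb the most abundant. The summed T cell markers went from 34.8 to 208 on day 5, with 4 of 4 tested higher (beside 11.1%) and Nkg7 the most abundant, and the macrophage and Kupffer cell markers from 1130 to 2506, with 6 of 9 higher and Lyz2 the most abundant.

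At week 10, when Cdkn1a and Btg2 were still raised, 7.27% of all genes were called higher in Mgmt-/- livers. Macrophage markers then stood at 836 in saline and 1791 in NDMA Mgmt-/- livers (5 of 9 higher). Cholangiocyte markers stood at 86.9 and 826, with 1 of 2 tested higher, Spp1 making up most of the sum and Cftr at 0 in all saline livers. Stellate cell and fibroblast markers stood at 420 and 660 (3 of 6 higher, Dcn the most abundant), and hepatocyte markers at 226683 and 157609 (1 of 6 lower, beside 3.88% of all genes). In WT livers of week 10 none of these markers was called. The kidney genes Kap, Umod and Slc12a1 were at 0 in every Mgmt-/- liver of week 10. The part of these cell types in the results for the members was not tested.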

How the data were processed

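RNA of each liver was made into a 3′ digital gene expression library. The authors aligned reads to GRCm38 with STAR, counted genes with ESAT (versions not given in the sources used here) and divided counts by DESeq2 size factors within each genotype. The deposited values are thus a normalised signal, 1 table per genotype. Levels of the members are given in that unit, while Mgmt was given as CPM and some tests used recovered reads or log2 CPM. Low values of a library shared 1 common step, which gave back whole reads for 209 of 213 libraries (100% of values above 0 within 0.1 of a whole number). The 4 others were left out of tests on reads, and 1 labelled liver was not analysed here.

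Values were tested as log2(value + 1) with limma 3.58.1 (trend, robust, two-sided) within genotype and time, with sex and batch terms where estimable. Genes entered a test if their mean over its livers was at least 5. In WT mice of day 2, day 5 and week 10 each batch held 1 sex, so the sex and batch terms are the same. A fold change on this scale understates the change of low genes. Effects were compared between times with limma and between genotypes with edgeR 4.0.16 on recovered reads. Relations between genes used permutation tests in scipy 1.17.1, exact under 10 livers. DESeq2 1.42.0 on recovered reads, other pseudocounts, scalings, filters and covariates, and single batches, were alternatives. The labels give each of the 214 livers a library number, used here as its name, and a MUS identifier of its own. Each library was taken as 1 mouse. The authors assigned treatment by litter at birth and drew mice from different litters where possible. Litter was not a term in any fit here, so its part in the results was not tested. The fits were tested on simulated data. Named genes were the 10 members, up to 4 per list with the largest change among those called in Mgmt-/- livers of day 1, the 5 most like Cdkn1a, and Mgmt. Cell type markers were named outside this rule, after their values were seen, as the most abundant of their list, as listed at 0, or (Kap) as high in 2 libraries. The members, lists and tests were chosen with earlier results of these data known.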

Additional observations from a re-analysis of the deposited data

Results flagged for a closer look

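Of 130 groups of 4 to 10 livers examined over the 10 genes, 12 (9.23%) held a liver far from the rest of its group by Dixon's criterion, where chance gives about 1 in 20. Of these, 6 belonged to 3 WT NDMA libraries under 300000 reads: D215014 of day 5 was the highest for Cdkn1a (435) and the lowest for Mdm2 (0), D215022 of week 10 was the lowest for Mdm2 (0) and Btg2 (0), and D215006 of day 2 was the lowest for Btg2 (21.0) and Sesn2 (0). The others were Ccng1 at 12.2 in WT NDMA D202020 of week 10, Plk2 at 63.0 in Mgmt-/- NDMA D389089 and at 2.69 in WT NDMA D202007 of day 2, Trp53inp1 at 99.7 in Mgmt-/- NDMA D389060 of day 5, Sesn1 at 16.4 in WT saline D202010 of day 5 and Ppm1d at 0 in WT saline D202025 of month 10.

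The response to NDMA differed between genotypes by the edgeR interaction term for Mdm2 (2.59), Trp53inp1 (1.73) and Plk2 (1.59) on day 2. On day 5 it differed for Mdm2 (1.95) and Trp53inp1 (1.17), and at week 10 for Cdkn1a (4.31) and Btg2 (2.01). Each is on the log2 scale and greater in Mgmt-/- livers, beside 2.37%, 1.46% and 3.32% of all genes at the 3 times. The genotypes shared no batch at these times, so a batch difference in the NDMA response cannot be told apart from genotype. Plk2 on day 2 and Trp53inp1 on day 5 lost their calls without the high saline and sex-mismatched WT libraries. Neither day 5 call passed with limma on log2 CPM.

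The response differed from that on day 1 by the limma contrast of effects for 16 of 68 gene and time combinations tested. In Mgmt-/- livers these were Ccng1 (-2.40), Plk2 (-1.63) and Trp53inp1 (-2.08) at week 10, and Cdkn1a (-2.28), Mdm2 (-2.37), Ccng1 (-3.50), Btg2 (-1.05), Plk2 (-1.78), Zmat3 (-2.42), Trp53inp1 (-2.82) and Sesn1 (1.15) at month 10. In WT livers the effect on Ccng1 fell by 2.00 and that on Zmat3 fell by 2.03 at week 10, and at month 10 those on Mdm2 (-1.77), Ccng1 (-2.16) and Trp53inp1 (-1.94) differed too. Of all genes, 2.00% and 4.01% were called lower in Mgmt-/- livers at week 10 and month 10, and 5.42% higher at month 10. In WT livers 1.08% and 0.868% were called lower. The WT calls depended on the libraries that stood apart, and WT livers of week 10 shared no batch with those of day 1.

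In libraries outside the comparisons, the kidney gene Kap was at 6147 and 7562 in Mgmt-/- saline libraries D389011 and D389017 of day 5, against at most 13.9 in the other Mgmt-/- libraries.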

How the results depend on the processing

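Of 106 alternative counts of members called between NDMA and saline, 101 were within 1.5 times of the reported count, and no called member reversed its direction in any alternative run. The 5 others were as follows, and the cause was not tested. Shares of all genes called under the alternatives of this section are not given, so their counts have no background. At week 10 in Mgmt-/- livers a pseudocount of 5 gave 5 members and scaling every library to the same total gave 6, in place of 3. In WT livers batch 200803Eng alone gave 0 in place of 7 on day 1, DESeq2 gave 2 in place of 4 on day 2 (it gave Zmat3 no adjusted p), and a fit of treatment alone gave 3 in place of 5 on day 5.

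For effects against day 1, in WT livers a pseudocount of 5 gave 4 in place of 2 at week 10 and 5 in place of 3 at month 10, and leaving out the high saline and sex-mismatched libraries gave 7 and 6. With the 2 Kap libraries 1 Mgmt-/- member (Ccng1, by -1.01) was called on day 5 in place of 0. For the genotype term on day 5, limma on log2 CPM gave 0 in place of 2, and 1 member was called without the high saline and sex-mismatched libraries, with the Kap libraries, or without libraries under 300000 reads. Of the correlations with Cdkn1a, 4 in place of 8 passed without the 2 farthest livers: 3 of the 8 (WT NDMA livers of day 1, with Mdm2, Ccng1 and Trp53inp1) and Sesn2 in the same livers, which had not passed with all of them (r = 0.44, adjusted p = 0.201, against 0.65, adjusted p = 0.0318). The sex term gave 0 members under all 101 alternatives, leaving out single livers included. The removals of named WT libraries were chosen after seeing the data. Depth limits Ppm1d, Sesn2 and Zmat3, whose values are often a few reads. No paired analysis was possible because each library has its own number and MUS identifier, and none is shared between groups.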
